A study of Mus musculus with 8 samples.

Results

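The genes described here are 33 genes of glucose uptake and glycolysis, of the pathway's exits to lactate and of the control of pyruvate entry into mitochondria. They were chosen by name from the gene table, in which all 33 were found among 18094 listed genes, and all 33 passed the filter of a mean of at least 10 normalized counts that left 15767 genes for testing. RNA-seq had been performed on WT and CTCF-K20R cells of the mouse embryonic stem cell (mESC) line E14Tg2A. Cells were either undifferentiated (day 0) or had formed embryoid bodies (EBs) by day 4, and each genotype had 2 libraries a day. In CTCF-K20R cells lysine 20 of the chromatin protein CTCF was replaced with arginine by CRISPR/Cas9 editing of the endogenous gene, and no allele or agent other than this distinguished the genotypes in the labels. The mESCs of both genotypes had been kept in LIF with the 2i inhibitors CHIR99021 and PD0325901 on mouse embryo fibroblasts inactivated with mitomycin C, and EBs of both had been formed in hanging drops in medium with serum but no LIF, so that the day and the medium cannot be told apart. The edited cells came from targeted colonies chosen by drug selection and sequencing, and the labels do not say whether the 2 CTCF-K20R libraries of a day came from 1 clone or from separate clones, so that the mutation and the clone cannot be told apart either.

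Glucose enters cells through facilitative transporters, is phosphorylated by hexokinases, and is then split and oxidized to pyruvate in the cytosol. Lactate dehydrogenase turns pyruvate into lactate, which leaves the cell through monocarboxylate transporters, while the pyruvate dehydrogenase complex brings pyruvate into the citrate cycle unless its kinases switch it off. Pluripotent cells are known for a high glycolytic flux, and most steps can be carried by more than 1 isozyme, each from a gene of its own with its own regulation. The hypoxia-inducible factors (HIFs) are known activators of many of these genes through the core motif ACGTG.

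The libraries held between 19412659 and 21311513 normalized counts, and the 33 genes took 3.13% to 3.2% of them in the 4 mESC libraries, 2.79% in both WT EB libraries, and 3.54% and 3.5% in the mutant EB libraries. The 2 WT libraries of each day differed by less than the sampling noise of reads (ratios of 0.326 on day 0 and 0.246 on day 4, against 4.36 and 4.88 for CTCF-K20R) and were counted as 1 sample, although the paper describes them as biological replicates, so that a comparison set 1 WT sample against 2 CTCF-K20R samples. P-values therefore measured the spread between the CTCF-K20R samples of both days, moderated across genes. Ctcf itself (ENSMUSG00000005698) stood at 3971 and 3938 normalized counts in WT mESCs, 4610 and 4408 in CTCF-K20R mESCs, 4241 and 4256 in WT EBs and 4926 and 4771 in CTCF-K20R EBs, which checks no label because the mutation changes 1 residue and not the transcript's presence. In bulk RNA, fewer cells of a type and less RNA per cell cannot be told apart.

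The upstream sequences of 5 genes are printed because the results turn on them: the transporters that bring glucose in and lactate out, the enzyme that makes lactate, and the kinase whose genotype difference moved most between the days. Each run is the 250 bases before the RefSeq transcription start (GRCm38.p6, first listed start of the gene), 5′ to 3′ on the gene's strand, and capitals mark the HIF core ACGTG on either strand, including its overlap with the E-box CACGTG that MYC and its relatives bind.
Slc2a1 (chr4:119108495-119108744, plus strand): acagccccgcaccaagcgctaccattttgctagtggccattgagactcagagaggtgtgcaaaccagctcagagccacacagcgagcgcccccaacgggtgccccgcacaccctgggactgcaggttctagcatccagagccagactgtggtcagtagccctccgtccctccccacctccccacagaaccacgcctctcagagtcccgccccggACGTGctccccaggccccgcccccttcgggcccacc
Ldha (chr7:46845554-46845803, plus strand): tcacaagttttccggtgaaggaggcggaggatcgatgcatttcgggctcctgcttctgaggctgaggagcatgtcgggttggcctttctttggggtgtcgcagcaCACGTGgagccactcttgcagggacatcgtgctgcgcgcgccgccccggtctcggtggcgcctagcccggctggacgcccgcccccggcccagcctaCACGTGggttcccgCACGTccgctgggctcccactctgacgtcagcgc
Slc16a1 (chr3:104638414-104638663, plus strand): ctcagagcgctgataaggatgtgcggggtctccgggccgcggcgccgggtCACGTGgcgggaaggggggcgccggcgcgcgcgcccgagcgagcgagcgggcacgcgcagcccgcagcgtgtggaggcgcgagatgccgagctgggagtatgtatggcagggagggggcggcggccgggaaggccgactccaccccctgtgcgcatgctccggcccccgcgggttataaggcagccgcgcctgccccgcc
Slc16a3 (chr11:120948817-120949066, plus strand): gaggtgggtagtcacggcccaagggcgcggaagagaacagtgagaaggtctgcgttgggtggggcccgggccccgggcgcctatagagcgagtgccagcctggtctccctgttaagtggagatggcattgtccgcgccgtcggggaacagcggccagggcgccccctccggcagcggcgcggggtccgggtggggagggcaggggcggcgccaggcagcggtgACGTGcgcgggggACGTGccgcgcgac
Pdk1 (chr2:71872974-71873223, plus strand): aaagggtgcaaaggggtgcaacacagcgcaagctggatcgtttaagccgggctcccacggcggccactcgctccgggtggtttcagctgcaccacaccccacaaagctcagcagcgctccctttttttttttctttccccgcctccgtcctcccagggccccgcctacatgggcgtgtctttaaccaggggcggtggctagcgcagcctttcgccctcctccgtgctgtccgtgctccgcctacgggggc

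Of the 33 genes, 32 had an upstream sequence in the table and 15 of these (46.9%) held ACGTG in at least 1 start's 250 bases, against 18.5% of 27025 genes of the whole table. It was found in 10 of 21 genes (47.6%) that were higher in CTCF-K20R EBs and in 5 of 11 (45.5%) of the others. Ldha, which was lower, held the most matches, 5 with each of its 2 CACGTG counted on both strands. Slc16a1, also lower, held 2 by the same count, both from 1 CACGTG. Pdk1, which was higher, held none in the letters shown. A match describes letters in this window and shows no binding.

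On day 4, most of the pathway was higher in CTCF-K20R EBs than in WT EBs. Of the 33 genes, 22 (66.7%) were higher at an adjusted p under 0.05, where 21.5% of all genes tested were, and under quantile normalization, which turned Gapdh and set Pkm to 0, 20 were, where 23.7% of all genes were. A further 3 (Pfkfb2, Ldha and Slc16a1) were lower in the first of these fits, where 18.6% of all genes were. With a change of over 2-fold as well, the rule for differentially expressed genes (DEGs), 9 were higher (Slc2a1, Hk1, Pfkp, Pfkfb3, Aldoc, Eno2, Slc16a3, Pdk1 and Pdk4) against a background of 6.89%, and 1, Slc16a1, was lower against 8.65%. With each library scaled to the mean total instead, 21 were higher and 4 lower, where 16.9% and 24.3% of all genes were, so that 41% of all calls were in the higher direction in place of 53.6%. That scaling moved the median of all genes by -0.1 on the log2 scale, and the 33 genes' median then stood 0.55 above that of all genes. The median log2 fold change was 0.57 over the 33 genes and 0.01 over all genes. Both CTCF-K20R libraries lay above both WT libraries for 27 of the 33 genes and below them for 5, where 43.3% and 41.7% of all genes did so.

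**Figure D1:**
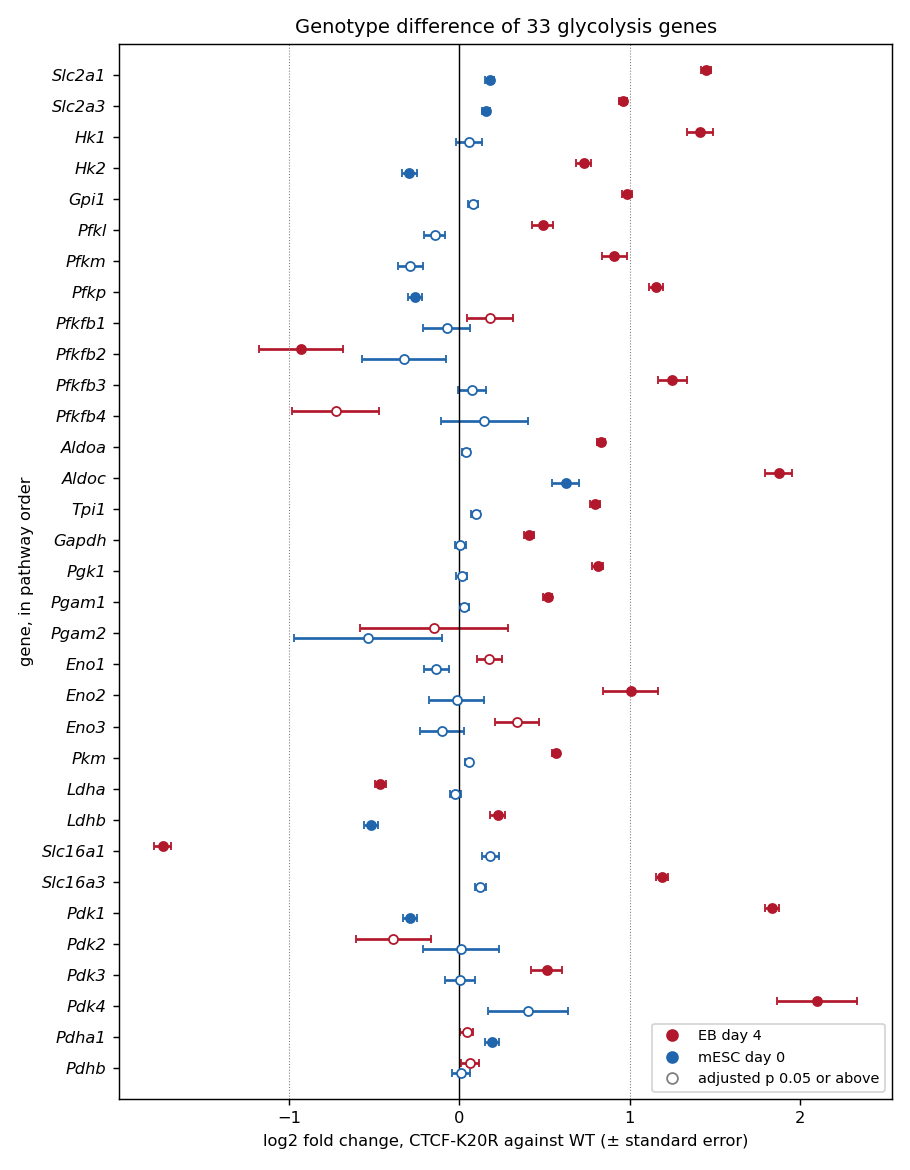
The log2 fold change of CTCF-K20R against WT (x axis, log2 scale, bars ± standard error) is plotted for each of the 33 genes in pathway order (y axis) on day 4 (red) and day 0 (blue); filled points had an adjusted p under 0.05. On day 4, 22 genes lie to the right with filled points, among them Gapdh, which changes sign under quantile normalization, and 3 lie to the left, whereas on day 0 no gene lies beyond 1 in either direction.

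Among the genes of uptake and the first phosphorylation, all 4 were higher in CTCF-K20R EBs. Slc2a1 (GLUT1, the basal glucose transporter; chromosome 4 from 119108711 to 119137983) had 12499 and 12439 normalized counts in WT against 33816 and 34189.8 in CTCF-K20R EBs. For Slc2a1 this was a log2 fold change of 1.45 (SE 0.027, adjusted p = 1.3e-05). Slc2a3 (GLUT3, a transporter of high affinity) had 19499.9 and 19486 in WT EBs and 38173 and 37758 in CTCF-K20R EBs. Slc2a3 had a log2 fold change of 0.96 (SE 0.024, adjusted p = 2.53e-05). The mutant libraries of both genes stood above the WT libraries, as they did for 43.3% of all genes. The distance within a pair was small beside that between the pairs. Hk2, which leads the pair per kb of transcript, had 3709 and 3697 in WT and 5988 and 6298 in mutant EBs. Hk2 had a log2 fold change of 0.73 (SE 0.043, adjusted p = 0.000207). Hk1 had 280.3 and 279 in WT and 712 and 782 in mutant EBs. For Hk1 this was a log2 fold change of 1.41 (SE 0.077, adjusted p = 0.000168). Hk1 made up 8.88 and 8.88% of both hexokinases per kb in WT EBs and 13.3 and 13.8% in CTCF-K20R EBs.

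The steps from glucose 6-phosphate to the trioses were higher as well, apart from most of the bifunctional enzymes that set the level of fructose 2,6-bisphosphate. Gpi1, the isomerase, had 8896 and 8940 in WT EBs and 17759.5 and 17553 in CTCF-K20R EBs. Gpi1 had a log2 fold change of 0.99 (SE 0.029, adjusted p = 3.02e-05). All 3 subunits of phosphofructokinase 1, the committed step, were higher: Pfkl, Pfkm and Pfkp had log2 fold changes of 0.49, 0.91 and 1.15 with adjusted p of 0.00262, 0.000547 and 4.86e-05. The call of Pfkl was lost without replicate 2 of CTCF-K20R EBs (0.45, adjusted p = 0.0564). Pfkp, the platelet type, had 1387 and 1321 in WT EBs and 3002 and 3031 in CTCF-K20R EBs. Its low level in both EB groups is seen against 19886 or more normalized counts in every mESC library.

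Of the 4 bifunctional enzymes, 1 was higher, 1 lower and 2 did not pass the test. Pfkfb3, whose product activates phosphofructokinase 1 and whose kinase activity far exceeds its phosphatase activity, had 956 and 934 in WT EBs and 2185 and 2315 in CTCF-K20R EBs. Pfkfb3 had a log2 fold change of 1.25 (SE 0.084, adjusted p = 0.000308). Pfkfb2 had 368 and 360.2 in WT and 157 and 232 in mutant EBs. For Pfkfb2 this was a log2 fold change of -0.93 (SE 0.24, adjusted p = 0.0307). Its mutant libraries were unequal. Without replicate 1 of CTCF-K20R EBs, the lower of them, the log2 fold change was -0.65 and no longer passed the test (adjusted p = 0.0657), and the call was also lost without either CTCF-K20R mESC library, with no filter on low values and with the EB libraries alone. Pfkfb4 had 148 and 152 in WT and 104 and 78.3 in mutant EBs with an adjusted p of 0.0709, and Pfkfb1 had 319.9 and 336 in WT and 398 and 347 in mutant EBs with an adjusted p of 0.347.

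Both aldolases, which split fructose 1,6-bisphosphate, were higher. Aldoa, which leads per kb, had 34875 and 34726 in WT EBs and 62458 and 61537 in CTCF-K20R EBs. The log2 fold change of Aldoa was 0.83 (SE 0.023, adjusted p = 2.93e-05). Aldoc had 363 and 358 in WT and 1382 and 1273 in mutant EBs. Aldoc had a log2 fold change of 1.88 (SE 0.079, adjusted p = 8.75e-05). Aldoc was with Slc2a1 one of the DEGs that were also called higher on day 0. Tpi1, which interconverts the trioses, had 11755 and 11707 in WT and 20458 and 20271 in mutant EBs. For Tpi1 this was a log2 fold change of 0.80 (SE 0.028, adjusted p = 5.2e-05).

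Between glyceraldehyde 3-phosphate and pyruvate, leaving the enolases aside, 4 enzymes were called, with log2 fold changes between 0.41 and 0.81, Gapdh among them with a sign that depended on the scaling. Pgk1, the first ATP-yielding enzyme, had 27331 and 27443 in WT EBs and 49094 and 47130.3 in CTCF-K20R EBs. The log2 fold change of Pgk1 was 0.81 (SE 0.032, adjusted p = 6.9e-05). Pgam1 had 21633 and 21568 in WT and 31139.7 and 30741 in mutant EBs. Pgam1 had a log2 fold change of 0.52 (SE 0.025, adjusted p = 0.000127). For both enzymes the mutant libraries lay above the WT libraries without overlap, as they did for 43.3% of all genes. Pkm, the pyruvate kinase of most cells other than liver and red blood cells, had 92305 and 92192 in WT and 137312 and 135761 in mutant EBs. For Pkm this was a log2 fold change of 0.57 (SE 0.02, adjusted p = 5.52e-05) that was 0 under quantile normalization. Gapdh, which is often the reference gene of RT-qPCR and was so in this study, had 120333 and 120691 in WT EBs and 162503 and 157558 in CTCF-K20R EBs. Gapdh was thus 1.33-fold higher, with a log2 fold change of 0.41 (SE 0.031, adjusted p = 0.000487), which turned to -0.12 (adjusted p = 0.0772) under quantile normalization. The cause of that turn was not tested. Pgam2, the muscle mutase, had 18.4 to 27.5 normalized counts in the 4 EB libraries, and the groups overlapped (adjusted p = 0.813).

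Of the 3 enolases, 1 passed the test. Eno1, the ubiquitous form, had 50014 and 50172 in WT EBs and 57003 and 56163 in CTCF-K20R EBs. Eno1 did not pass the test, with a log2 fold change of 0.18 (SE 0.073, adjusted p = 0.111) that turned to -0.15 under quantile normalization. Its value is uncertain, because 27.7% of its words (runs of 31 bases) also occur in Eno1b, a near-identical copy that the table lists with 46968 and 47009.6 in WT EBs and 59145 and 57196 in CTCF-K20R EBs. Eno1b on its own was higher (log2 fold change 0.31, SE 0.033, adjusted p = 0.0015), and so was the sum of both (0.24, SE 0.037, adjusted p = 0.00487), an alternative that was added after the data were seen. Eno2, the neuronal form, had 235 and 231 in WT and 519.6 and 422 in mutant EBs. The log2 fold change of Eno2 was 1.01 (SE 0.16, adjusted p = 0.00571). Eno3, the muscle form, had 342 and 354 in WT and 437 and 443 in mutant EBs, with an adjusted p of 0.0904. Reads of other members could also be divided with copies: 45.3% of the words of Pgk1, 62.9% of Pgam1, 65.3% of Pkm, 67% of Ldhb and 72.8% of Gapdh occurred in no other annotated gene. Pgk1-rs7, which shares 54.7% of the words of Pgk1, was listed at no more than 41.2 normalized counts in any library. Gm3839, which shares 21.2% of the words of Gapdh, had a highest value of 32.6. Gm26513, which shares 9.3% of the words of Pfkm, had a highest value of 12.6.

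The exits from pyruvate to lactate went the other way for 1 member of each pair. Ldha, the subunit that favours lactate formation, had 88479.9 and 88129.9 in WT EBs and 65147 and 62838 in CTCF-K20R EBs. Ldha had a log2 fold change of -0.46 (SE 0.031, adjusted p = 0.000304). Ldhb had 3634 and 3612 in WT and 4307 and 4160.3 in mutant EBs. For Ldhb this was a log2 fold change of 0.22 (SE 0.042, adjusted p = 0.01), whose call was lost when libraries were scaled to the mean total (0.12, adjusted p = 0.0711), under quantile normalization (0.094, adjusted p = 0.107) and without replicate 1 of CTCF-K20R EBs (0.2, adjusted p = 0.0613). Slc16a1 (MCT1, a transporter of lactate in both directions; chromosome 3 from 104638668 to 104658462) had 16454 and 16369.5 in WT EBs and 4820.2 and 4997 in CTCF-K20R EBs. Slc16a1 was thus 3.34-fold lower, with a log2 fold change of -1.74 (SE 0.05, adjusted p = 3.02e-05). Slc16a3 (MCT4, an exporter of lactate in strongly glycolytic cells; chromosome 11 from 120948480 to 120960868) had 4515 and 4517 in WT and 10316 and 10269 in mutant EBs. Slc16a3 was thus 2.28-fold higher, with a log2 fold change of 1.19 (SE 0.034, adjusted p = 3.02e-05). The libraries of both transporters separated completely by genotype on day 4 and in opposite directions. Of all genes, 43.3% separated upwards in CTCF-K20R EBs and 41.7% downwards.

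At the entry of pyruvate into the citrate cycle 3 of 4 kinases were higher and the 2 subunits of their target did not pass the test. Pdk1 (chromosome 2 from 71873224 to 71903858), a kinase that switches pyruvate dehydrogenase off, had 2670.2 and 2647 in WT EBs and 9310.1 and 9644 in CTCF-K20R EBs. Pdk1 was thus 3.56-fold higher, with a log2 fold change of 1.83 (SE 0.041, adjusted p = 1.87e-05). Pdk4 had the largest log2 fold change of the 33, 2.10 (SE 0.24, adjusted p = 0.00175), but from 15 and 13.4 normalized counts in WT EBs to 65.8 and 62.3 in CTCF-K20R EBs, with the largest SE of the DEGs. Pdk3 had 649.8 and 662 in WT and 935 and 936 in mutant EBs. The log2 fold change of Pdk3 was 0.51 (SE 0.091, adjusted p = 0.00819) whose call was lost without either CTCF-K20R EB library (adjusted p = 0.0743 and 0.0754). Pdk2 had 119 and 129 in WT and 87.6 and 102 in mutant EBs, with an adjusted p of 0.216. The subunits Pdha1 and Pdhb of the dehydrogenase had log2 fold changes of 0.043 (SE 0.039, adjusted p = 0.429) and 0.064 (SE 0.052, adjusted p = 0.377), whose signs turned under quantile normalization and with scaling to library totals.

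**Figure D2:**
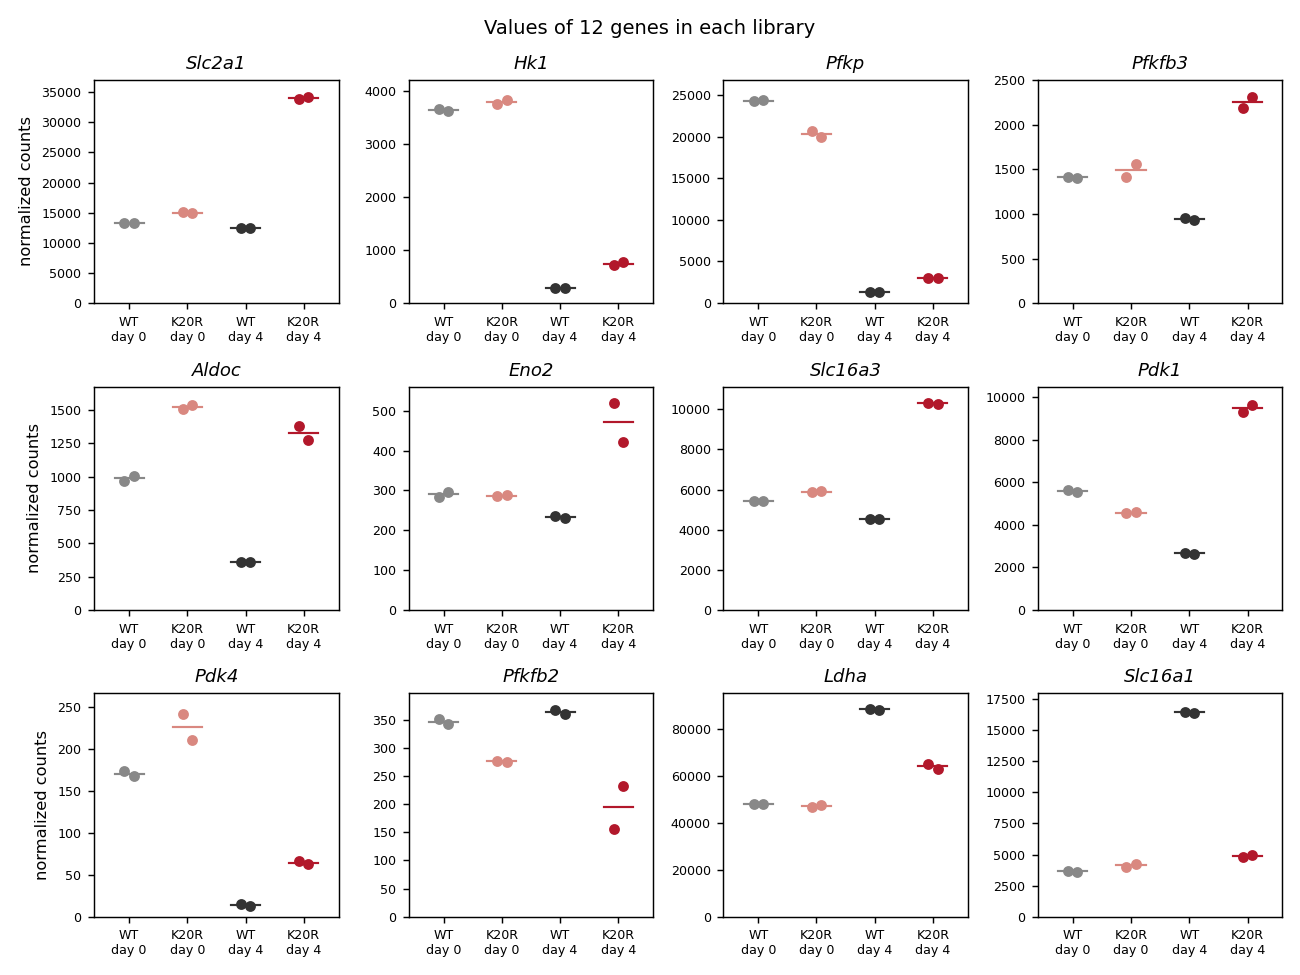
Normalized counts (y axis, linear from 0) of the 9 genes that were DEGs in the higher direction and of Pfkfb2, Ldha and Slc16a1, which were lower, are plotted for each library (points) with the mean of each genotype and day (lines). The WT points nearly coincide, Slc2a1, Slc16a3 and Pdk1 stand highest in CTCF-K20R EBs, and Slc16a1 stands at 16454 and 16369.5 in WT EBs and between 3630.2 and 4997 in all other libraries.

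On day 0, fewer of these genes differed than on day 4. Of the 33 genes, 4 (12.1%; background 7.83%) were higher in CTCF-K20R mESCs and 4 (12.1%; background 7.57%) were lower, and limma gave 0 DEGs in either direction (background 1.19% and 2.6%), while at an unadjusted p under 0.05 it gave 9 higher and 5 lower genes, 0 of them over 2-fold. The 4 higher genes were Slc2a1 (13266 and 13284 in WT and 15046 and 14980.2 in CTCF-K20R mESCs, log2 fold change 0.18), Slc2a3 (0.16), Aldoc (0.63) and Pdha1 (0.19). The 4 lower genes were Ldhb (10235 and 10221 in WT and 7049 and 7232 in CTCF-K20R mESCs, log2 fold change -0.52), Hk2 (-0.29), Pdk1 (-0.29) and Pfkp (-0.26). Hk2, Pfkp, Ldhb and Pdk1 were thus lower in the mutant on day 0 and higher on day 4, and with Pdk1 the mESC values were 5617 and 5540.4 in WT and 4531 and 4584 in CTCF-K20R cells. These day 0 calls rest on the spread estimated from all CTCF-K20R libraries: without either CTCF-K20R EB library limma called 0 of 33 in each direction at an adjusted p under 0.05, while 7 were higher and 5 lower at an unadjusted p under 0.05. In both of these fits 0% of all genes were called as well. Without replicate 1 of CTCF-K20R mESCs it called 1 higher and 2 lower genes (2.66% and 3.3% of all genes), and without replicate 2 it called 1 and 1 (2.92% and 3.7%). The median over the 33 genes was 0.01 on day 0, against -0.01 over all genes. Shares of all genes at an unadjusted p were not computed, so the unadjusted counts have no background beside them.

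The genotype difference itself differed between the days (the difference on day 4 minus that on day 0) for 24 of the 33 genes: 22 (66.7%; background 14.7%) were shifted towards higher values in the mutant on day 4 and 2, Ldha and Slc16a1, towards lower values (6.06%; background 12%). Gapdh is among the 22, and its shift turned to -0.061 under quantile normalization. The largest shift was that of Pdk1, at 2.12 (SE 0.058, adjusted p = 9.77e-05). Slc16a1 followed with -1.92 (SE 0.071, adjusted p = 0.000144), Pdk4 with 1.70 (SE 0.34, adjusted p = 0.0183) and Pfkp with 1.42 (SE 0.056, adjusted p = 0.000171). The call of Pdk4 was lost without replicate 2 of CTCF-K20R mESCs (1.59, adjusted p = 0.0585) and without replicate 1 or 2 of CTCF-K20R EBs (adjusted p = 0.095 and 0.0907). Those of Eno2, Pdk3, Pfkl, Pfkfb3 and Gapdh were also lost without at least 1 of the CTCF-K20R libraries, with adjusted p between 0.0531 and 0.141.

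The change from mESCs to EBs was compared within each genotype. In WT cells, for which 1 sample a day allows no test, 28 of the 33 genes had lower values in EBs than in mESCs. Higher values in WT EBs were found for 15.2% of the 33 genes and for 50.4% of all genes. The median log2 change was -0.50, where the median of all genes was 0.01. Past 2-fold, 9 genes (27.3%; background 16.3%) had lower values in WT EBs, namely Slc2a3, Hk1, Hk2, Gpi1, Pfkp, Aldoc, Ldhb, Pdk1 and Pdk4, and 1, Slc16a1, had a higher value (3.03%; background 18.9%). In CTCF-K20R cells, 15 genes rose (45.5%; background 29.9%) and 11 fell (33.3%; background 28.6%), with a median log2 change of 0.04. Past 2-fold, 2 rose (Slc2a1 and Pdk1; background 14.5%) and 3 fell (Hk1, Pfkp and Pdk4; background 11.6%). The genotype comparisons and these changes share libraries, so they are not independent of each other and are given side by side only.

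**Figure D3:**
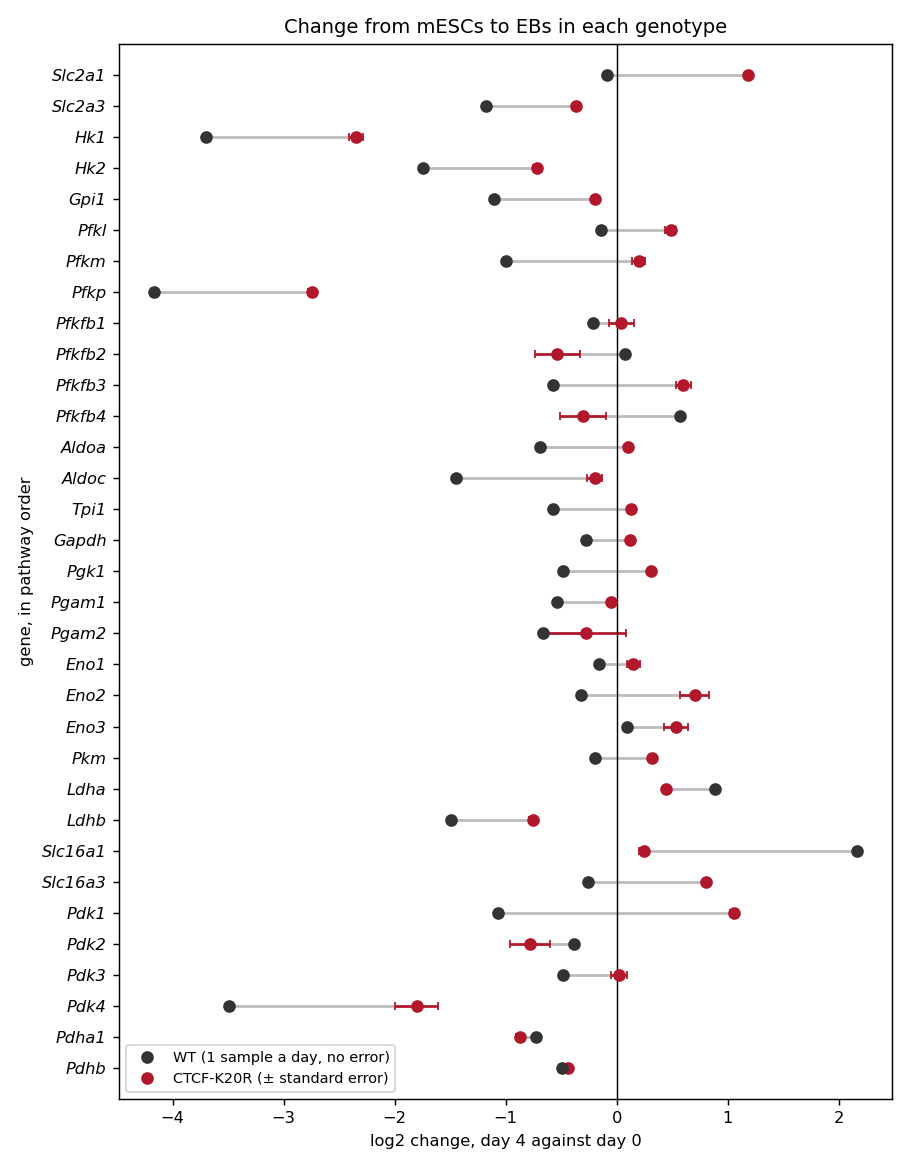
The log2 change from day 0 to day 4 (x axis, log2 scale) is plotted for each of the 33 genes in pathway order (y axis) in WT cells (black, 1 sample a day and no error) and in CTCF-K20R cells (red, ± standard error), with a grey line between both. Slc2a1 is at -0.09 in WT and 1.18 in CTCF-K20R cells, Pdk1 at -1.07 and 1.06, and Slc16a1, where the order is turned, at 2.17 and 0.24.

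The size of these changes differed between genes. Hk1, Pfkp and Pdk4 fell steeply in the mutant as well: Pfkp went from 20655 and 19886 in CTCF-K20R mESCs to 14.9% of that level in CTCF-K20R EBs, and from 24209 and 24388 in WT mESCs to 5.57% of that level in WT EBs. Hk1 kept 19.7% of its day 0 level in the mutant and 7.67% in WT cells, and Pdk4 kept 28.4% and 8.33%. Slc2a3 and Gpi1 kept 77.4% and 87.2% of their day 0 level in CTCF-K20R cells, against 44.3% and 46.5% in WT cells. Among the genes that rose in CTCF-K20R cells, Slc2a1 rose to 226% of its day 0 level, Pdk1 to 208%, Slc16a3 to 175%, Eno2 to 164% and Pfkfb3 to 151%, while in WT cells the same genes stood at 93.9%, 47.7%, 83.5%, 80.2% and 67%. Ldha stood at 184% of its day 0 level in WT and 136% in CTCF-K20R EBs, and Slc16a1 stood at 449% in WT against 118% in CTCF-K20R cells. Pdha1 and Pdhb had lower values in EBs of both genotypes, at 60.4% and 70.9% of day 0 in WT cells and 54.5% and 73.6% in CTCF-K20R cells.

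Isozymes were also compared as shares of their family in each library, on values per kb of the longest coding transcript, and no test was made of these shares. On day 4 the genotypes differed most in lactate transport: Slc16a1 made up 40 and 39.7% of the pair in WT mESCs and 40.2 and 41.4% in CTCF-K20R mESCs, then 78.1 and 78% in WT EBs and 31.4 and 32.3% in CTCF-K20R EBs. The leading transporter transcript was therefore Slc16a1 in WT EBs and Slc16a3 in all other libraries. Among glucose transporters, Slc2a1 made up 26.8 and 26.9% in WT mESCs, 43.8 and 43.7% in WT EBs and 51.8 and 52.4% in CTCF-K20R EBs, so that it led Slc2a3 per kb in the mutant EBs alone; without a length, Slc2a3 led in these as well, with Slc2a1 at 47% and 47.5%.

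Phosphofructokinase 1 changed its leading subunit in both genotypes. Pfkp made up 64.3 and 64.3% in WT and 62.5 and 63.1% in CTCF-K20R mESCs but 11.1 and 10.6% in WT EBs and 16 and 15.4% in CTCF-K20R EBs, in which Pfkl led with 78.2 and 78.9% and 71.3 and 71.5%. Pfkfb3 made up 40.2 and 39% of the bifunctional enzymes in WT EBs and 62.1 and 65% in CTCF-K20R EBs, and Pdk1 58.5 and 57.7% and 78.2 and 78.6% of the pyruvate dehydrogenase kinases. Ldhb went from 22.9 and 22.9% of both subunits in WT mESCs to 5.41 and 5.4% in WT EBs, and from 17.4 and 17.4% to 8.43 and 8.44% in CTCF-K20R cells. Aldoa, Pgam1 and Eno1 held 98.4% or more of their families per kb in every library, with the enolases taken as Eno1, Eno2 and Eno3. The copy Eno1b was left out, so the share of Eno1 holds without it only. Eno1b had 46968 and 47009.6 normalized counts in WT EBs, beside 50014 and 50172 for Eno1. In CTCF-K20R EBs it had 59145 and 57196, beside 57003 and 56163 for Eno1.

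**Figure D4:**
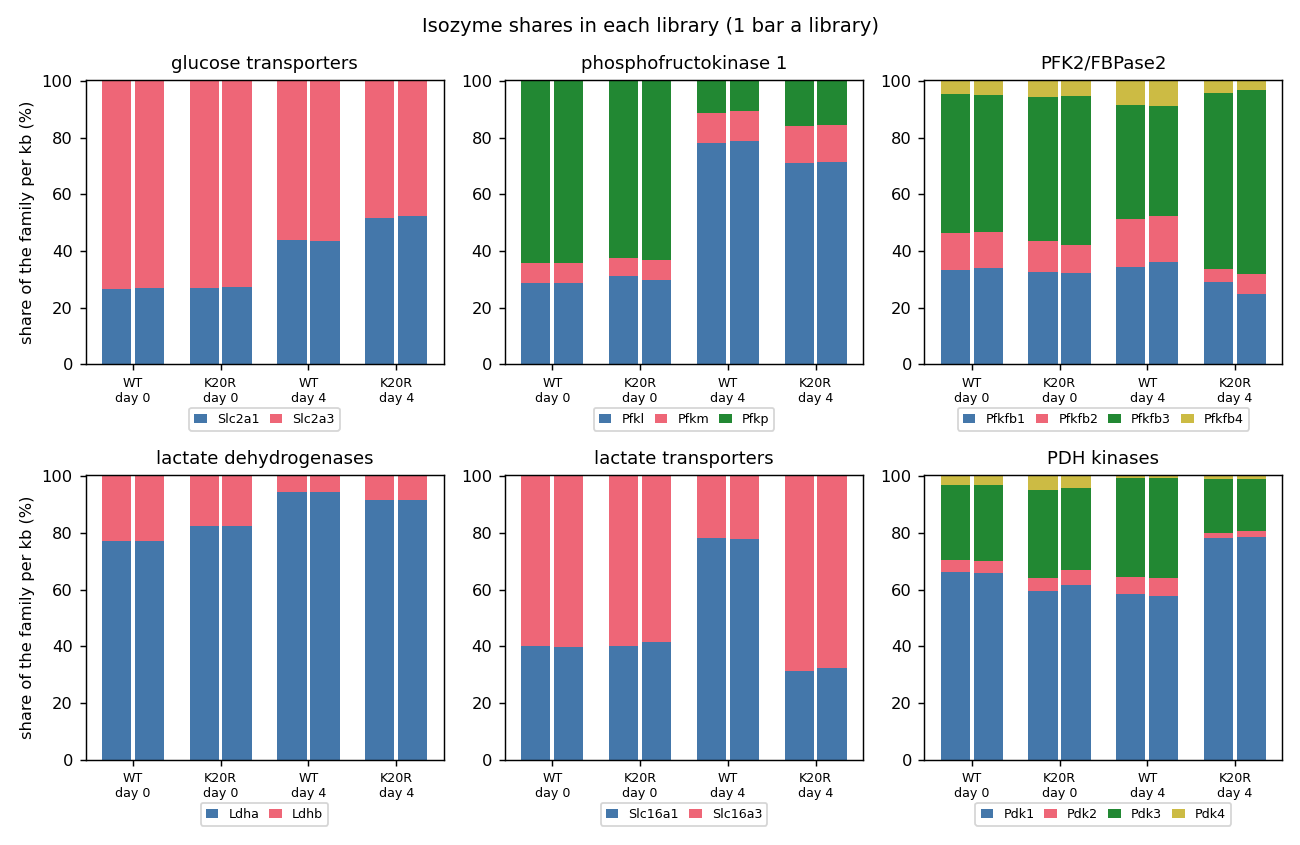
The share of each isozyme in its family (y axis, percent of the summed normalized counts per kb) is stacked for each library (1 bar a library, by genotype and day) in 6 families. Slc16a1 fills 78.1% and 78% of the lactate transporter bars in WT EBs and 31.4% and 32.3% in CTCF-K20R EBs, and Pfkp, which fills most of the phosphofructokinase 1 bars in mESCs, is down to between 10.6% and 16% in EBs.

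Genes around the pathway were read from lists. On day 4, 21.5% of all genes tested were called higher and 18.6% lower. Of 17 tested other isozymes and transporters, 1 was higher and 5 were lower on day 4, and of these Slc2a8, an intracellular glucose transporter, was alone in passing a mean of 100 (465 and 451 in WT EBs and 273 and 322 in CTCF-K20R EBs, log2 fold change -0.63). Of 8 genes of pyruvate entry, 3 were higher, led by Pdp2 and Pdpr, which act in undoing the kinases' phosphorylation (0.87 and 0.80, beside 0.69 and 0.87 on day 0, where both were called too), and 2 were lower, Mpc2 of the mitochondrial pyruvate carrier (-0.83) and Pdhx (-0.34). Of 8 pentose phosphate genes 2 were higher (Pgd 0.41 and Tkt 0.37), of which Tkt was also called on day 0 (0.40). Of 5 genes of the serine and glycine branch 3 were higher (Phgdh 0.93, Psat1 0.41 and Shmt1 0.40) and 1 was lower (Shmt2 -0.14). Of 5 gluconeogenesis genes 1 was lower (Pck2 -0.40). Phgdh was also called higher on day 0 (0.64), and Pck2 was also called lower then, by more (-0.96).

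Of 18 regulators, 4 were higher and 7 lower on day 4, where 21.5% and 18.6% of all genes were. Hif1a, the oxygen-regulated subunit of HIF-1, had 4053 and 4132 in WT EBs and 3186 and 3372 in CTCF-K20R EBs (log2 fold change -0.32), and was chosen for mention outside the rule after its values were seen. The 3 largest rises among the regulators were those of Hif3a (213 and 199.6 in WT and 1007 and 1054 in mutant EBs, log2 fold change 2.31) and of the prolyl hydroxylases Egln1 (1.30) and Egln3 (0.72), which mark HIF subunits for degradation and are HIF targets themselves. The largest falls were those of Epas1 (-1.20), which encodes HIF-2 alpha, Mycl (-0.98) and Mycn (-0.59). On day 0, Egln1 was already called higher (0.53) but Egln3 was called lower (-1.04), and Hif3a (0.15) did not pass the test. Epas1 stood at -1.19 on day 0 without passing the test, and had only 29.4 to 91.4 normalized counts in EBs. Mycl (0.027) and Mycn (-0.15) did not pass on day 0 either. Of 19 tested HIF targets outside glycolysis, 12 were higher and 3 lower on day 4. With genes under a mean of 100 set aside, the largest rises were those of Bhlhe40 (411 and 407 in WT and 2187 and 2333 in mutant EBs, log2 fold change 2.46), P4ha2 (1.51) and Bnip3 (1.33), while Cited2 (-0.91), P4ha1 (-0.45) and Ndrg1 (-0.28) were lower. On day 0, 1 of these targets was higher and 5 were lower, where 7.83% and 7.57% of all genes were. Their median log2 fold change on day 4 was 0.45, beside 0.01 over all genes, and HIF activity itself was not measured.

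Markers of cell types differed on day 4 as well, when 21.5% of all genes tested were called higher and 18.6% lower. Of 9 tested pluripotency markers, 7 were higher and 2 lower in CTCF-K20R EBs, 5 and 2 of them by over 2-fold. The summed level of those listed was 16460 and 16626 in WT EBs, 33159 and 32593 in CTCF-K20R EBs and 120364 to 122374 in mESCs. The tested markers' median log2 change from day 0 to day 4 was -4.42 in WT and -4.56 in CTCF-K20R cells. Of 10 primitive streak and mesoderm markers, 9 were lower, and their sum was 46197 and 46311 in WT EBs and 3573 and 3498 in CTCF-K20R EBs, with Mesp1 at 2.4 and 1.07 in the latter. Most of the pluripotency sum in CTCF-K20R EBs was Pou5f1, named here after its values were seen, at 21940.1 and 21590.1 against 12595 and 12696 in WT EBs and 23485 to 24703 in mESCs. Of 5 tested endoderm markers 4 were lower and of 4 neural markers 3 were higher. Of 5 tested markers of fibroblasts, of which the feeders are a source, 2 were higher and 1 lower. The sum over the listed ones was 501 to 511 in WT mESCs, 160.2 and 150.4 in CTCF-K20R mESCs, 514 to 533 in WT EBs and 758 and 691 in CTCF-K20R EBs. In CTCF-K20R EBs most of it was Thy1. Lum and Dcn were at or near 0 in all mESC libraries and Postn was at 0 in all libraries but WT EBs. Of 7 tested muscle markers, 1 was higher and 2 were lower. The part of this difference in cell makeup in the glycolysis genes was not tested.

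As for position, the tested genes within 2 Mb of Slc2a1, Pdk1, Slc16a1 and Slc16a3 had median day 4 log2 fold changes of 0.032, 0.16, -0.16 and -0.026 over 55, 29, 39 and 76 neighbours. For Pfkp the median was 0.6, over 4 neighbours only.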

How the data were processed

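RNA of 8 libraries (WT and CTCF-K20R, days 0 and 4, 2 each) was analysed. The authors used Trim Galore for trimming, salmon with mm10 for quantification, tximport to reach gene level and DESeq2 to normalize. Per gene, the deposited signal is a normalized count whose divisor varies by gene as well as by library. Whole reads could therefore not be recovered, and the exact depth is unknown. Annotation release and strand setting are not given in the sources used here, so overlapping antisense genes cannot be told apart.

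limma 3.58.1 under R 4.3.3 was run on log2(value + 1) (group means, eBayes with a mean-variance trend, Benjamini-Hochberg adjustment over 15767 genes with a mean of at least 10), two-sided, with 2 residual and 3.51 prior degrees of freedom; fold changes of low genes are understated on this scale. SE is the standard error of the log2 fold change. WT pairs were averaged, since they differed by less than the sampling noise. The paper describes the libraries as biological replicates from independent experiments, also for WT, whereas the labels do not say that they came from separate cultures. The fit was tested on simulated data. Same-numbered samples did not deviate together (correlations from -0.04 to 0.001 over 12383 genes), so the numbers were not used to pair samples. DEGs had an adjusted p under 0.05 and a change of over 2-fold.

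All 33 genes are named; of other genes, the 3 with the largest change on day 4 in each direction per list, among those called with a mean of at least 100, copies of members that the table lists, and Ctcf. The members, lists and tests were chosen with earlier results of these data known. Positions and transcript lengths came from GENCODE vM21 (GRCm38) and upstream sequences from RefSeq (GRCm38.p6). Alternatives were other pseudocounts, filters, scalings and sets of libraries. Annotation and plots were made in Python 3.11.15 (numpy 2.4.6, matplotlib 3.10.9).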

Additional observations from a re-analysis of the deposited data

Results flagged for a closer look

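The genotype difference of 24 of the 33 genes differed between day 4 and day 0 by the interaction term of limma (adjusted p from 9.77e-05 to 0.038). The shift, day 4 minus day 0 on the log2 scale, was positive for 22 genes: Pdk1 (2.12), Pdk4 (1.70), Pfkp (1.42), Hk1 (1.35), Slc2a1 (1.27), Aldoc (1.25), Pfkm (1.198), Pfkfb3 (1.18), Slc16a3 (1.07), Hk2 (1.02), Eno2 (1.02), Gpi1 (0.91), Slc2a3 (0.81), Pgk1 (0.80), Aldoa (0.79), Ldhb (0.74), Tpi1 (0.70), Pfkl (0.63), Pkm (0.51), Pdk3 (0.51), Pgam1 (0.49) and Gapdh (0.40). It was negative for 2 genes, Ldha (-0.44) and Slc16a1 (-1.92). Under quantile normalization the shift of Gapdh turned to -0.061. Day, medium and cell makeup differed together, and their parts were not tested.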

How the results depend on the processing

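Of the 25 genes called on day 4, 19 kept their call in every planned setting and 6 lost it in at least 1. With all 8 libraries as separate samples, with or without a replicate block, 24 genes were higher and 5 lower on day 4, 11 higher and 6 lower on day 0, and 24 shifted higher and 4 lower between the days. Without the block, 33.8% and 31.7%, 23.8% and 24.2%, and 29.3% and 27.2% of all genes were so called. With the block these shares were 33.2% and 31.2%, 22.6% and 22.8%, and 28.7% and 26.4%. With scaling to library totals, 2 DEGs were lower on day 4, for which the share of all genes was not computed. With the libraries compared alone, limma called 0 higher and 1 lower gene on day 0, where 1.26% and 1.17% of all genes were called. These calls were at an adjusted p under 0.05. At an unadjusted p under 0.05 it gave 7 and 5, for which the share of all genes was not computed. With the replicate block, 23 genes were higher and 3 lower on day 4, where 21.1% and 18.6% of all genes were. The block made Eno1 a call (0.18, adjusted p = 0.0376). Since replicate numbers did not pair the samples, this is given as a value only. Without 1 WT library at a time, 22 genes were higher and 3 lower on day 4. Of all genes, 21.5% to 21.9% and 18.4% to 18.7% were so called. On day 0, 4 were higher and 4 lower, where 7.84% to 8.2% and 7.59% to 7.75% were. Between the days 22 shifted higher and 2 lower, where 14.5% to 15.1% and 11.9% to 12.1% did. In CTCF-K20R cells 15 rose and 11 fell, where 29.8% to 30.1% and 28.4% to 28.9% did. Without 1 CTCF-K20R library at a time, that group kept 1 sample, so effect sizes are given here. The median of the chosen genes stood 0.55 to 0.57 above that of all genes on day 4. For the shift between the days it stood 0.68 to 0.70 above. Calls lost in these fits on day 4 and in the shift are named with their genes above. Pfkfb2 was lower by over 2-fold on day 4 without replicate 2 of CTCF-K20R EBs. The signs that turned are given as log2 fold changes; those of Gapdh on day 4, in genotype by day and in the CTCF-K20R change between the days had passed the test, and Pkm on day 0 passed it with the turned sign (adjusted p = 0.0161). With quantile normalization they were, on day 4 Gapdh -0.12, Pgam2 0.039, Eno1 -0.15, Pdha1 -0.095 and Pdhb -0.026, and on day 0 Gapdh -0.061, Pgk1 -0.0070, Pgam1 -0.055, Eno2 0.052, Pkm -0.087, Pdk3 -0.0074 and Pdhb -0.024, and in genotype by day Gapdh -0.061, Eno1 -0.024 and Pdhb -0.0024, and in the CTCF-K20R change between the days Gapdh -0.061 and Eno1 -0.012. With scaling to library totals they were, on day 4 Pdha1 -0.064 and Pdhb -0.043, and on day 0 Gapdh -0.018, Pgk1 -0.0098, Pdk2 -0.013, Pdk3 -0.020 and Pdhb -0.012, and in genotype by day Pdhb -0.031. Leaving out 1 library at a time turned these signs, with ranges of -0.073 to 0.079 for Pdk3 on day 0, -0.045 to 0.014 for Eno2 on day 0, -0.10 to 0.12 for Pdk2 on day 0, -0.022 to 0.031 for Gapdh on day 0, -0.011 to 0.033 for Pdhb on day 0, -0.058 to 0.14 for Pfkfb1 in the CTCF-K20R change between the days, -0.00087 to 0.15 for Pfkfb3 on day 0, -0.054 to 0.098 for Pdk3 in the CTCF-K20R change between the days, -0.43 to 0.13 for Pgam2 on day 4 and -0.55 to 0.00076 for Pgam2 in the CTCF-K20R change between the days. The cause of these changes was not tested. With 1 WT sample and 2 CTCF-K20R samples a day, the spread came from 2 residual degrees of freedom, and the exact depth is unknown.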
